A study of Homo sapiens with 18 samples.

Results

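The comparison described here is between OVCAR3 cells given an immunoglobulin A (IgA) reactive with brain-derived neurotrophic factor (BDNF), called BDNF IgA, and untreated OVCAR3 cells of the same experiment. OVCAR3 is an established human line of high-grade serous ovarian carcinoma. It was chosen by its sample titles and took 6 of the 18 libraries of the series, 3 per group. Of the 55765 genes in the count table, 18732 passed a filter on low counts and were tested. In this second experiment of the series a further 3 libraries came from cells given IgA reactive with TSPAN7, a tetraspanin of the cell membrane. The first experiment had 3 libraries each of untreated cells and of cells given IgA or IgG of no set specificity (non-specific).

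All cells were cultured in medium with low serum, and antibodies were given at 0.5 µg/ml. The incubation was 24 h by the labels and the methods, although another description of the same experiments gives a shorter time. Both antigen-reactive IgA preparations were purified from the conditioned medium of tumour-derived B cells immortalized with Epstein-Barr virus. These B cells had been sorted with peptide tetramers and grown as clones. For the non-specific antibodies the methods name natural human IgA and IgG. Untreated cells received no antibody. A response to the antigen specificity, to IgA of any specificity and to other contents of the preparation cannot be told apart in BDNF IgA against untreated, and a direct comparison with TSPAN7 IgA is given after it. The labels do not say whether the 3 libraries of a group came from separate cultures, so p-values measure the spread between these libraries, which may be technical.

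As background, IgA is carried through epithelial cells by the polymeric immunoglobulin receptor, the product of PIGR. BDNF is a secreted growth factor that signals through the kinase TrkB (NTRK2) and the receptor p75 (NGFR). Type I interferons bind IFNAR1 and IFNAR2 and activate the factor ISGF3, which contains STAT2 and IRF9 and binds the interferon-stimulated response element in the promoters of its target genes. Those targets include proteins that restrict viral replication, sensors of viral RNA and members of the antigen presentation pathway.

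The 6 libraries held between 41874819 and 47381836 counts, and between 18090 and 18485 genes had at least 10 counts. Mitochondrial genes supplied from 8.60% to 10.03% of the counts. All 9 epithelial and serous carcinoma markers checked were present in every library, with 2225 counts or more each, and their summed level was 5163 to 5534 CPM (counts scaled by library size) in untreated and 5297 to 6366 with BDNF IgA. Of 10 B and plasma cell markers, IGHA1, IGHA2 and IGKC were at 0 in all 6 libraries and no marker passed 17 counts, with sums of 0.428 to 0.524 and 0.519 to 0.549 CPM in the same order. The 6 T cell and myeloid markers summed to 0.858 to 1.98 in untreated and 1.67 to 1.74 with BDNF IgA, with CD3D and CD3E at 0, and the 5 fibroblast and mesothelial markers to 68.0 to 77.4 and 74.4 to 91.9. No marker of these other cell types was called. BDNF IgA replicate 2 stood apart from its group. Over genes the standard deviation of the log2 difference was 0.206 between BDNF IgA replicates 2 and 3 and 0.176 between replicates 1 and 2, against 0.144 between replicates 1 and 3 and 0.132 to 0.150 between untreated libraries.

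BDNF IgA left 841 genes higher and 596 lower than in untreated cells, by the two-sided quasi-likelihood test of edgeR at a Benjamini-Hochberg adjusted p under 0.05. These are 4.49% and 3.18% of the genes tested. Genes past that threshold are named called genes below. Between the 3 BDNF IgA and 3 untreated libraries there was no overlap in 791 of the 841 higher and 575 of the 596 lower genes. Calling a gene favours such separation, and the share over all genes tested was not counted. These numbers are therefore no further support for the calls. The changes were mostly small. The median called increase was 1.26-fold and the median called decrease 1.19-fold, and 61 genes rose and 16 fell by at least 2-fold. Of the 61, 22 were among the interferon-stimulated genes listed for this work. The counts depended on single libraries. Leaving out BDNF IgA replicate 2 raised them to 1505 and 1293 genes. They fell to 506 and 337 when BDNF IgA replicate 1 was left out, and to 429 and 305 when it was replicate 3. For untreated replicates 1, 2 and 3 left out in turn, 513, 512 and 593 genes were higher and 377, 293 and 364 lower.

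**Figure D1:**
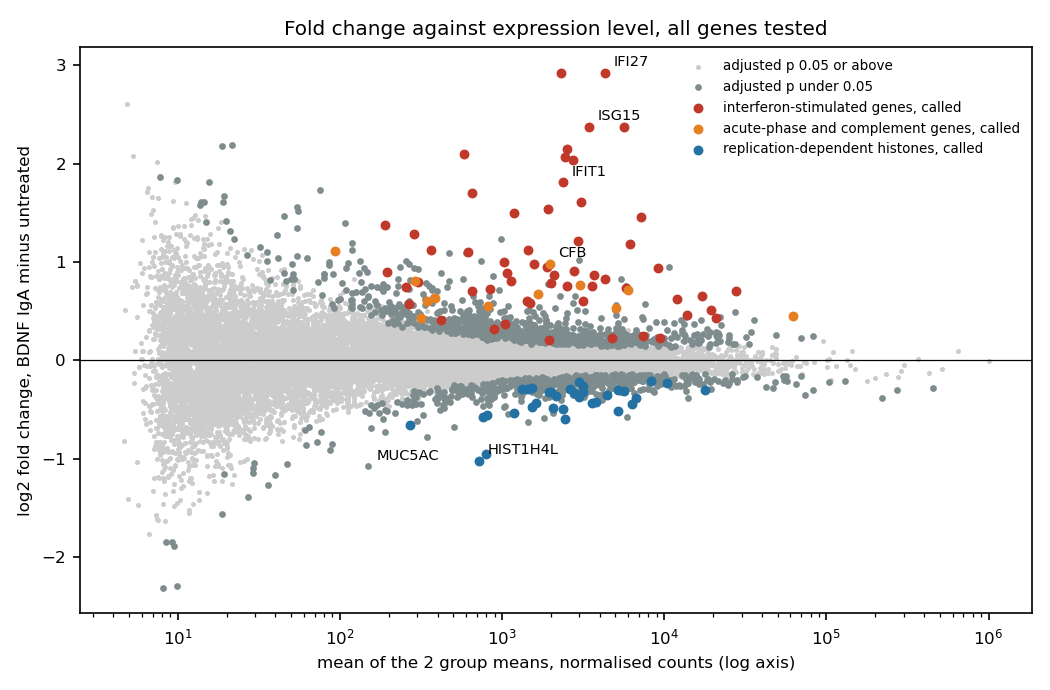
Each point is 1 of the 18732 genes tested, with its mean level in normalised counts on a log axis against its log2 fold change (BDNF IgA minus untreated); coloured points are called members of 3 gene lists. Called interferon-stimulated genes lie above 0, up to 2.92 for IFI27, and called replication-dependent histone genes lie below 0, down to -1.02 for HIST1H4L.

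Among called genes with a mean of at least 50 normalised counts in either group and groups that did not overlap, 12 of the 15 with the largest increases were listed interferon-stimulated genes. In 5 lists that together hold 75 such genes, 70 were tested. In cells given BDNF IgA 57 of them were higher and 0 lower, and their median log2 fold change was 0.77 against 0.00 for all genes tested. The 57 stayed between 53 and 57 when any of the 9 libraries of the experiment was left out. IFI27, an interferon-induced mitochondrial membrane protein, had 1032, 1164 and 835 normalised counts in untreated replicates 1 to 3 and 7647, 6623 and 8689 with BDNF IgA. This was a log2 fold change of 2.92 ± 0.09 (± SE here and below, adjusted p 2.59e-15). IFI44L had 547, 606 and 470.5 counts in untreated cells and 4022, 3535 and 4684 with BDNF IgA, a log2 fold change of 2.92 ± 0.09. The groups lay far apart in both genes, where the rule required no overlap, and replicate 2 was the lowest BDNF IgA library.

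ISG15, a ubiquitin-like protein that is conjugated to other proteins, rose from 1151, 1196 and 992 to 5706, 5596 and 6007 normalised counts, or by 2.38 ± 0.06 on the log2 scale (adjusted p 1.33e-16). IFIT1, which binds viral RNA caps, rose from 1094, 1163 and 903 to 3432, 3565 and 4097, or by 1.81 ± 0.08 on that scale. MX1, a GTPase that restricts viruses, rose from 942, 1081 and 797 to 3929, 3682 and 4167, or by 2.06 ± 0.08. For these 3 genes the BDNF IgA libraries lay close together, and the groups did not overlap by the rule that chose the genes. IFI6 rose by 2.38 ± 0.07 and the membrane protein IFITM1, which limits viral entry, by 2.03 ± 0.08. By the rule given above, the remaining genes of the 15 with the largest increases were OAS2 (2.15 ± 0.12), XAF1 (2.10 ± 0.11), HSH2D (1.73 ± 0.24), TRIM22 (1.70 ± 0.10), OAS1 (1.61 ± 0.07), HRASLS2 (1.56 ± 0.23), IFI44 (1.53 ± 0.08) and CXCL10 (1.52 ± 0.22). HSH2D, HRASLS2 and CXCL10 were low, with at most 36.5 normalised counts in an untreated library and 65.7 to 158 with BDNF IgA. The IFI, IFIT, IFITM and OAS genes have close paralogs, so some reads may have been shared or lost in counting.

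**Figure D2:**
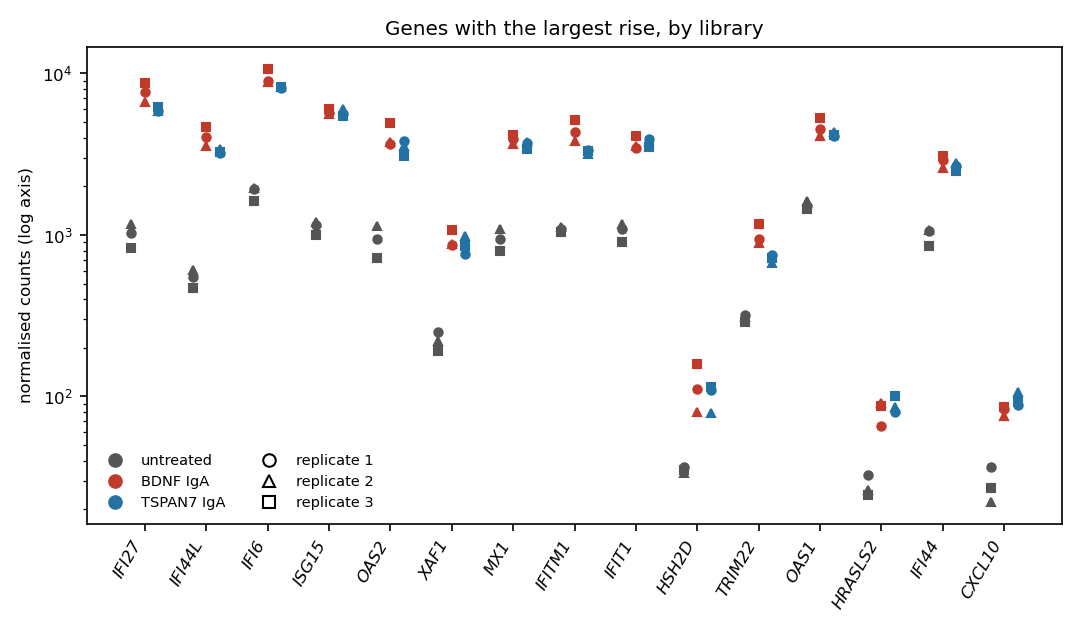
Normalised counts on a log axis in each library for the 15 genes with the largest increase; grey is untreated, red BDNF IgA and blue TSPAN7 IgA, and the symbol gives the replicate. The rule that chose these genes required the 3 BDNF IgA libraries to lie apart from the 3 untreated libraries. The lowest BDNF IgA value runs from 65.7 counts in HRASLS2, against at most 32.4 in untreated, to 8897 in IFI6, against at most 1962.

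The promoters of 5 of these genes are shown because they are among the largest increases and hold matches to the core of the interferon-stimulated response element. They are the 250 bases before the RefSeq start site (GRCh38.p14, a later build than the GRCh37 on which the reads were aligned), 5′ to 3′ on the strand of the gene, with each match to the core GAAANNGAA on either strand in capitals.
IFI27, chr14:94110486-94110735, plus strand: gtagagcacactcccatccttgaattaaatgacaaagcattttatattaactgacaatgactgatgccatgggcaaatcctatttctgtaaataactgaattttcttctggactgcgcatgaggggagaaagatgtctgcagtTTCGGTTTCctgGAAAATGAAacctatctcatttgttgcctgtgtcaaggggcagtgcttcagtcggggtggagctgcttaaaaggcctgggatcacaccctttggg
IFI44L, chr1:78620198-78620447, plus strand: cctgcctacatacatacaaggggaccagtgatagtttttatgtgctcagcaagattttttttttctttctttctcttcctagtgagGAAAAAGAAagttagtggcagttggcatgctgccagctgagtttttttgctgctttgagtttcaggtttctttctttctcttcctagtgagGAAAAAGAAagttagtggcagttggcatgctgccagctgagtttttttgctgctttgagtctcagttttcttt
IFI6, chr1:27672193-27672442, minus strand: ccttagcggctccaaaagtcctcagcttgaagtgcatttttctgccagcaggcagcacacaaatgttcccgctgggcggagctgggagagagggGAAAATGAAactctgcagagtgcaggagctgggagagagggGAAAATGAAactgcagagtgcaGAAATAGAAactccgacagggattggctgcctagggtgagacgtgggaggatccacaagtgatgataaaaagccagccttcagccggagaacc
ISG15, chr1:1013247-1013496, plus strand: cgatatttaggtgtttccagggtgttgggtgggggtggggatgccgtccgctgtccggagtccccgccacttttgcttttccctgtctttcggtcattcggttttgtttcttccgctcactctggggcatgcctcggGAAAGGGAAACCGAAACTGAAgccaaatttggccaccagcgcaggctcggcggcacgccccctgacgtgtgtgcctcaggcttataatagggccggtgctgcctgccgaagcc
IFIT1, chr10:89392373-89392622, plus strand: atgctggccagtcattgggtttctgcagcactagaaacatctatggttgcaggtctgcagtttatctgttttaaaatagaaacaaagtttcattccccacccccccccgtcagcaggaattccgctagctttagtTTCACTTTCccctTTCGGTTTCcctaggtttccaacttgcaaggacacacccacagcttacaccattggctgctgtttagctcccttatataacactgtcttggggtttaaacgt

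In ISG15 there are 3 matches, each overlapping the next, of which the first begins 113 bases before the start site, and in IFI6 they start at 156, 115 and 93 bases before it. Promoter windows of 300 bases, 250 before to 50 after the start site, were matched for 11791 of the 18732 genes tested. The core was in 6.496% of them. Among called higher genes it was in 13.0% (83 of 639), and by size of increase in 44.7% (17 of 38) of those with a log2 fold change of at least 1, 22.9% (27 of 118) from 0.5 to 1 and 8.07% (39 of 483) below 0.5. Among called lower genes it was in 8.84% (41 of 464), and among the replication-dependent histone genes called lower in 29.6% (8 of 27). The core of the gamma-activated site, an element of interferon gamma responses, TTCNNNGAA, was in 6.34% of all windows, 6.26% of those of called higher genes and 26.3% (10 of 38) of those with a log2 fold change of at least 1. XAF1 and OAS1 had no GAAANNGAA in the window. These are matches of letters and were not tested.

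The interferon genes themselves were near the limit of detection. Of 21 ligand genes 20 were too low to test. Of these, 17 had 0 counts in all 6 libraries and the other 3 had at most 4 counts in a library, with 10 counts over the untreated and 9 over the BDNF IgA libraries. IFNB1 had 4, 1 and 1 counts in untreated replicates and 0, 1 and 1 with BDNF IgA, and IFNL1 4, 0 and 0 against 3, 1 and 2. A change in either was not detectable at this depth. The epithelial interferon IFNE was measured at 134, 117 and 115 normalised counts in untreated cells and 112, 134 and 107 with BDNF IgA, and its difference of -0.05 ± 0.18 was within the spread (adjusted p 0.913).

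Receptors moved little, and some of the factors downstream of them rose. The median log2 fold change was 0.08 for the 9 receptors and JAK kinases and 0.16 for the 14 STAT and IRF factors. IFNAR1 had 5308, 5777 and 5987 normalised counts in untreated cells and 5350.3, 5152 and 5416 with BDNF IgA (log2 fold change -0.10 ± 0.05, adjusted p 0.211), and IFNAR2 differed by -0.09 ± 0.07 (adjusted p 0.457). IFNGR1, a chain of the receptor for interferon gamma, was the only called gene of the 9 receptors and JAK kinases, at 0.36 ± 0.06. STAT2 rose from 1828, 1706 and 1684 to 2409, 2317 and 2806 normalised counts, a log2 fold change of 0.53 ± 0.07 (adjusted p 4.14e-05). IRF9 rose by 1.12 ± 0.22 and IRF7, which amplifies interferon transcription, by 1.10 ± 0.08. Of 14 STAT and IRF factors tested 4 were higher, or 7 without BDNF IgA replicate 2, and 0 were lower. For IRF9 the libraries were low and uneven, at 104, 72.8 and 48.8 against 163, 184 and 142 normalised counts.

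The 5 lists differed in the share of their members that rose. All 7 tested genes of ISG15 conjugation were higher, among them the conjugating enzymes UBA7 (0.75 ± 0.11) and UBE2L6 (0.76 ± 0.06), the ligase HERC5 (0.60 ± 0.06) and the deconjugating enzyme USP18 (0.71 ± 0.08). Of 30 IFIT, IFITM and MX effectors 28 were higher, with a median of 0.89. Of 5 OAS and RNase L genes 4 were higher, including OAS3 (1.46 ± 0.06) and OASL (1.28 ± 0.17), which sense double-stranded RNA or derive from such sensors. Of 13 sensors of RNA and DNA 8 were higher, with the helicases DDX60 (1.5 ± 0.09), DHX58 (1.37 ± 0.15), IFIH1 (1.00 ± 0.08) and DDX58 (0.78 ± 0.07) and the DNA sensor IFI16 (0.87 ± 0.07). Of 16 PARP, SP100 and TRIM genes 11 were higher, including PARP9 (0.93 ± 0.05) and the nuclear body protein SP100 (0.75 ± 0.05). No tested member of the 5 lists was lower.

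Antigen presentation genes rose by less. Of 7 MHC class I chains 6 were higher, with a median log2 fold change of 0.44. HLA-B rose from 4161, 4314 and 4556 to 7348, 6418 and 8254 normalised counts (0.76 ± 0.06, adjusted p 6.63e-08), and beta-2 microglobulin (B2M), the invariant light chain, from 18007, 18500.2 and 19600.3 to 25884, 22628 and 27671 (0.44 ± 0.06). In both genes BDNF IgA replicate 2 was the lowest of its group and above all untreated libraries. Of 16 antigen processing genes 10 were higher, among them the peptide transporter TAP1 (0.55 ± 0.07) and the immunoproteasome subunit PSMB9 (0.48 ± 0.07). Of 20 guanylate-binding and other interferon gamma genes 11 were higher and 1 lower, including GBP5 (0.77 ± 0.08) and HLA-DMA (0.71 ± 0.14). The HLA class I genes are near-identical over much of their length, and reads may be misassigned between them.

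Inflammatory genes of the NF-kB type rose as well. Of 22 chemokines and interleukins 11 were higher and 0 lower, and without untreated replicate 1 the number was 7. IL8, which attracts neutrophils, rose from 738, 706 and 732 to 1176, 1299.5 and 1087 normalised counts (0.71 ± 0.08, adjusted p 4.98e-06). CXCL1 rose by 0.41 ± 0.06, CXCL3 by 0.64 ± 0.08, CCL20 by 0.75 ± 0.13, CSF1, a growth factor of macrophages, by 0.65 ± 0.06, and the low gene IL1A by 1.39 ± 0.18. TNF, at 43.5 to 64.8 counts in untreated cells and 85.9 to 124 with BDNF IgA, rose by 0.87 ± 0.22 (adjusted p 0.0152). Its call was lost when BDNF IgA replicate 3 (edgeR adjusted p of 0.0936) or untreated replicate 2 (0.0929) was left out. Of 18 NF-kB subunits and inhibitors 8 were higher, among them NFKBIA (0.42 ± 0.05) and TNFAIP3 (0.49 ± 0.07), both feedback inhibitors. That number fell to 5 without BDNF IgA replicate 1 or 3.

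Acute-phase and complement genes formed a further group. Of 16 tested, 12 were higher and 0 lower, with a median log2 fold change of 0.59. Complement factor B (CFB), a component of the alternative pathway, had 1340.2, 1267 and 1364 normalised counts in untreated cells and 2466, 2001 and 3376 with BDNF IgA, a log2 fold change of 0.98 ± 0.11 (adjusted p 6.86e-06). Lipocalin 2 (LCN2), which sequesters bacterial siderophores, had 4889.8, 3677 and 4952 and 6259.7, 6445 and 9423 counts (0.71 ± 0.12). Serum amyloid A1 (SAA1) had 1362, 1114 and 1354 and 1780.4, 1927 and 2393 counts (0.67 ± 0.09). In the 3 genes the groups did not overlap, and replicate 3 was the highest BDNF IgA library. S100A8, a calcium-binding alarmin, rose by 0.76 ± 0.14, SAA2 by 0.81 ± 0.12 and C1R by 0.61 ± 0.11. CHI3L1, a secreted glycoprotein, had 72.9, 36.4 and 67.7 and 89.9, 93.9 and 199 counts (1.11 ± 0.28, adjusted p 0.0153). Its value was 0.63 (edgeR adjusted p 0.196) without BDNF IgA replicate 3 and 0.86 (0.0944) without untreated replicate 2. SAA1 and SAA2 are close paralogs.

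TNFSF10, the death receptor ligand TRAIL, had 557, 626 and 573 normalised counts in untreated cells and 1245, 974 and 1899 with BDNF IgA, a log2 fold change of 1.23 ± 0.15 (adjusted p 9.88e-06). The metalloproteinase MMP7 had 90.2, 86.0 and 88.5 and 177, 117 and 239 counts (1.01 ± 0.20, adjusted p 0.00261). In both genes the 3 BDNF IgA libraries were above the untreated ones and differed among themselves by more than the untreated libraries did. The matrix proteins SPARC and fibronectin (FN1) rose by 0.88 ± 0.14 and 0.82 ± 0.07, the peptidase KLK7 by 0.75 ± 0.14 and the placental growth factor PGF by 0.69 ± 0.14. The lectin LGALS9, which binds receptors on T cells, rose by 0.81 ± 0.10. Of 18 proteases and plasminogen activators 8 were higher, but the number was 2 without BDNF IgA replicate 3, 3 without BDNF IgA replicate 1 or untreated replicate 1 and 4 without untreated replicate 3. Of 26 genes of serous ovarian carcinoma 8 were higher and 0 lower, but 17 without BDNF IgA replicate 2 and 4 or 5 without any other of the 6 libraries. Of 21 death receptor and TNF family genes 3 were higher and 3 lower, the latter including the decoy receptors TNFRSF10D (-0.45 ± 0.07) and TNFRSF11B (-0.69 ± 0.14), and the number higher was 6 without BDNF IgA replicate 2 and 1 without replicate 3.

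**Figure D3:**
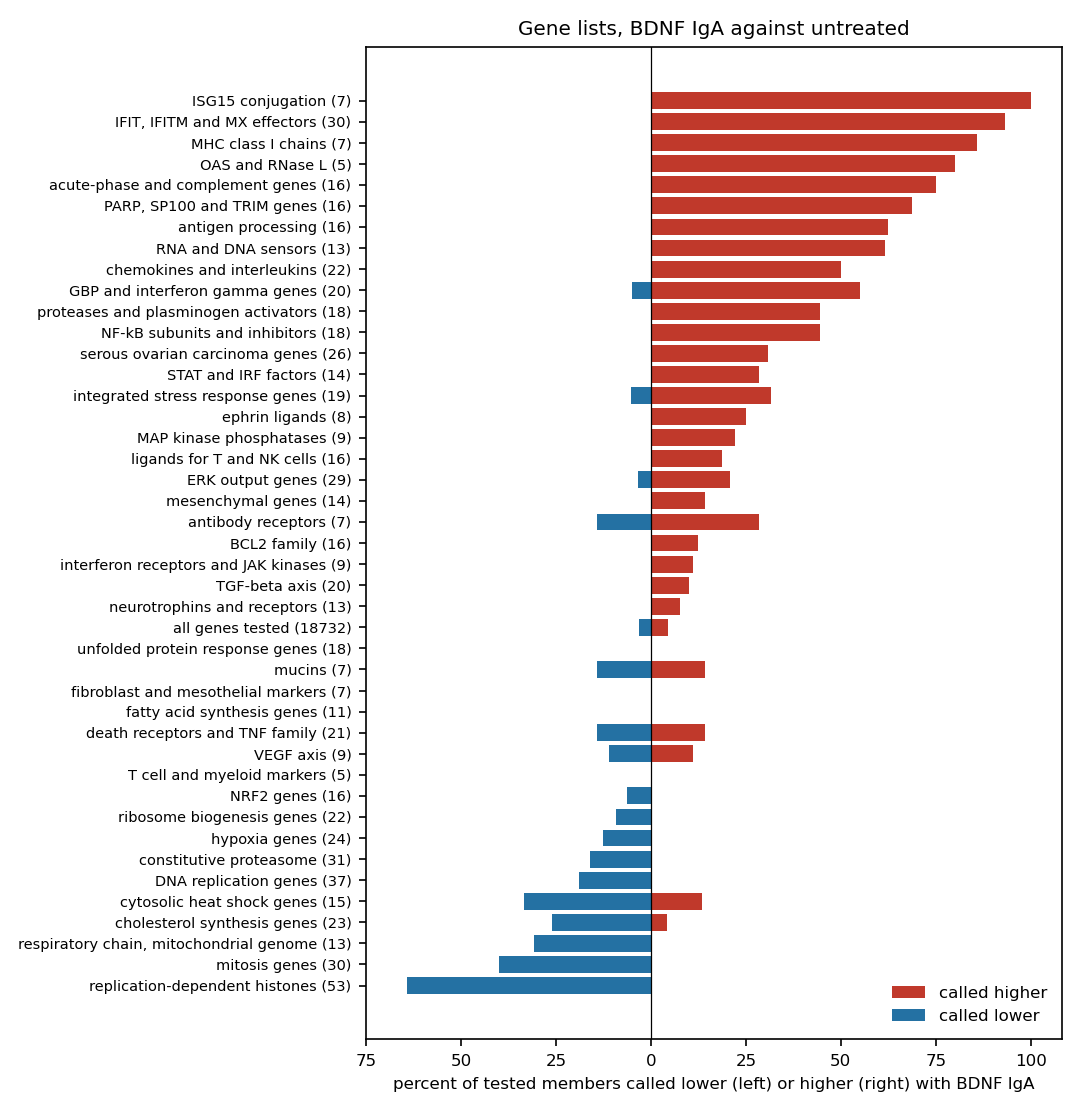
Percent of the tested members of each gene list (number tested in brackets, lists with at least 5) that were called higher (red, to the right) or lower (blue, to the left) with BDNF IgA. Interferon, MHC class I and acute-phase lists stand at the top, with 7 of 7 genes of ISG15 conjugation higher, and replication-dependent histones at the bottom, with 34 of 53 lower, beside 4.49% higher and 3.18% lower for all genes tested.

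The decreases were smaller than the increases. Among the 15 largest by the same rule, MUC5AC, a secreted gel-forming mucin, had 208, 187 and 212 normalised counts in untreated cells and 86.9, 108 and 93.1 with BDNF IgA, a log2 fold change of -1.08 ± 0.14 (adjusted p 3.1e-05). KDR, a receptor of VEGF, had 63.8, 56.6 and 70.4 and 33.3, 29.0 and 29.5 counts (-1.06 ± 0.24, adjusted p 0.00917). The clone-named transcript RP1-86D1.3 was at the bottom of the list (-1.27 ± 0.28) and also low, at 56.7, 53.6 and 42.4 against 17.2, 27.0 and 19.0 counts. PCDH17 (-0.92 ± 0.18), PLEKHS1 (-0.78 ± 0.10), TNFRSF11B, which is osteoprotegerin, and the small cytoplasmic RNA BCYRN1 (-0.68 ± 0.14) followed, together with the 2 histone genes given next.

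Other members of the 15 rested on few counts. PF4V1 (-0.86 ± 0.21) was not called without BDNF IgA replicate 1 (edgeR adjusted p of 0.0778) or 3 (0.0766), and SGK2 (-0.73 ± 0.17) not without BDNF IgA replicate 1 (0.0644) or untreated replicate 3 (0.0548). BBOX1 (-0.83 ± 0.24) lost its call without BDNF IgA replicate 1 or any untreated library (0.0619 to 0.130) and with limma (0.0523). SLC4A4 (-0.73 ± 0.21) lost it without any BDNF IgA library, untreated replicate 1 or 3 (0.0534 to 0.156) and with limma (0.0577). AP000688.29 (-0.68 ± 0.20) and CTC-241F20.3 (-0.71 ± 0.22, adjusted p 0.04997) were not called without most single libraries, with DESeq2 (0.0558 and 0.0667) or with limma (0.0516 and 0.0585).

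Replication-dependent histone genes were lower as a group. Their transcripts are made in S phase and end in a stem-loop instead of a poly(A) tail. Of 53 tested, 34 were lower and 0 higher, with a median log2 fold change of -0.30, and the number lower ranged from 30 to 39 when single libraries were left out. HIST1H4L had 957, 1004 and 949 normalised counts in untreated cells and 444, 594 and 396 with BDNF IgA (-1.02 ± 0.10, adjusted p 1.06e-06). The linker histone HIST1H1A had 1085, 1201 and 889 and 462, 644 and 530.3 counts (-0.95 ± 0.11, adjusted p 9.58e-06). HIST1H4C, a more abundant member, had 2929.6, 3029 and 2926 and 1779, 2119.6 and 1979 counts (-0.60 ± 0.06). In the 3 genes all BDNF IgA libraries were below all untreated libraries, which for HIST1H4L and HIST1H1A was required by the rule that chose them. In both of these replicate 2 was the highest of the treated libraries. HIST1H4A (-0.66 ± 0.14), HIST1H3J (-0.57 ± 0.11), HIST1H2BB (-0.56 ± 0.09) and HIST1H4D (-0.54 ± 0.09) also fell. Members of this family are near-identical in their coding parts, so values of single genes are uncertain. The median of the list stayed negative under all alternatives tried, from -0.37 to -0.27.

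Other genes of the cell cycle were lower by less. Of 37 DNA replication genes 7 were lower and 0 higher (median -0.13), including the flap endonuclease FEN1 (-0.38 ± 0.07), the ribonucleotide reductase subunit RRM2 (-0.31 ± 0.06) and thymidylate synthase, TYMS (-0.27 ± 0.06). Of 30 mitosis genes 12 were lower and 0 higher (median -0.14), including the kinase AURKA (-0.35 ± 0.05), the motor CENPE (-0.33 ± 0.05) and HMMR (-0.28 ± 0.05). These numbers moved with single libraries. Without BDNF IgA replicate 3 they were 4 and 3, without untreated replicate 1 they were 4 and 6, and without BDNF IgA replicate 2 they were 21 and 23. In the libraries themselves the median log2 ratio of the DNA replication genes to the untreated mean was -0.17, 0.03 and -0.24 in BDNF IgA replicates 1, 2 and 3.

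The next counts stand beside 4.49% higher and 3.18% lower of all genes tested. Of 15 cytosolic heat shock genes 5 were lower and 2 higher. HSPA8, the constitutive HSP70, had 89445, 97359 and 86335 and 74189.8, 80269 and 66283 normalised counts (-0.31 ± 0.06) and the HSP90 cochaperone CHORDC1 fell by 0.34 ± 0.07 on the log2 scale, while the small heat shock proteins CRYAB and HSPB1 rose by 0.73 ± 0.11 and 0.40 ± 0.05. The number lower was 2 without BDNF IgA replicate 3, 3 without untreated replicate 2 or 3 and 10 without BDNF IgA replicate 2. Of 23 cholesterol synthesis genes 6 were lower and 1 higher, with IDI1 (-0.35 ± 0.06) and MVK (-0.41 ± 0.09) among the former, and the 1 higher gene was not called without any of the 6 libraries but BDNF IgA replicate 2. Of 24 hypoxia genes 3 were lower, including PDK1 (-0.39 ± 0.07) and lactate dehydrogenase A, LDHA (-0.27 ± 0.04). Of 13 protein genes of the mitochondrial genome 4 were lower, including MT-ND1 (-0.29 ± 0.06), and the number was 7 without BDNF IgA replicate 2 and 10 without a filter on low counts. With TSPAN7 IgA against the same untreated libraries, 14 of the cholesterol synthesis and 8 of the hypoxia genes were lower and 0 higher. In that comparison 3 heat shock genes were higher and 0 lower, and 1 mitochondrial gene was lower.

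Genes of the antigen and of antibody uptake were examined as a list of their own. BDNF had 387, 404 and 357 normalised counts in untreated cells and 374, 568 and 382 with BDNF IgA, so that replicate 2 alone was above the untreated libraries, and the difference was 0.21 ± 0.12 (adjusted p 0.354, interval -0.05 to 0.47). Its receptors were low, with 46.6, 31.4 and 47.0 against 49.5, 51.9 and 62.7 counts for NTRK2 and 35.5, 38.4 and 22.6 against 29.3, 28.0 and 42.8 for NGFR, and neither differed beyond the spread (adjusted p 0.421 and 0.936). SORT1, the sorting receptor of pro-neurotrophins, differed by 0.04 ± 0.05 (interval -0.06 to 0.14). Of 13 neurotrophin genes tested 1 was called, SORCS2, a relative of SORT1, at 0.37 ± 0.08 (adjusted p 0.00371). This stands beside 4.49% higher and 3.18% lower of all genes tested, and the list as a whole was near that share. NTF3, NTF4, SORCS1 and the convertases FURIN, PCSK5, PCSK6 and PCSK7 had adjusted p from 0.223 to 0.966.

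PIGR was low, at 74.0, 89.0 and 65.9 normalised counts in untreated cells and 82.9, 59.9 and 139.7 with BDNF IgA, and its difference of 0.31 ± 0.27 was within the spread (adjusted p 0.55). The list of antibody receptors had 7 genes tested, not all of them receptors of antibodies. Of these 2 were called higher and 1 lower, beside 4.49% and 3.18% of all genes tested. The transferrin receptor TFRC, which also binds polymeric IgA, fell by 0.21 ± 0.04 on the log2 scale (adjusted p 0.00233). The neonatal Fc receptor FCGRT (0.46 ± 0.14, adjusted p 0.0443) and the transglutaminase TGM2 (0.20 ± 0.05, adjusted p 0.0151) were called higher. Both calls were fragile. FCGRT lost it without any single library except BDNF IgA replicate 2 (edgeR adjusted p 0.0527 to 0.272) and with DESeq2 (0.0513), and TGM2 without BDNF IgA replicate 1 (0.127, log2 fold change 0.13), or untreated replicates 1 (0.0577) or 3 (0.0731). FCGR2A (0.93 ± 0.31, adjusted p 0.0737), TRIM21, a cytosolic Fc receptor (0.27 ± 0.08, adjusted p 0.0518), and DPP4 (0.17 ± 0.11, adjusted p 0.42) were not called. FCGR2A and DPP4 were called without BDNF IgA replicate 2 (edgeR adjusted p 0.00552 and 0.0387).

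Of 29 genes that respond to ERK signalling 6 were called higher and 1 lower, beside 4.49% and 3.18% of all genes tested. Their median log2 fold change was 0.13, against 0.00 for all genes tested, and 24 of the 29 were above 0. The number called higher fell to 2 without untreated replicate 1. DUSP5, a phosphatase of ERK, differed by 0.16 ± 0.07 (adjusted p 0.213), and 2 of 9 MAP kinase phosphatases were higher, or 0 without untreated replicate 3 and 1 without BDNF IgA replicate 1 or 3 or untreated replicate 2. EFNB2 differed by -0.03 ± 0.05 (adjusted p 0.773) and 2 of 8 ephrin ligands were higher, including EFNB1 (0.29 ± 0.06), or 1 without any of the 6 libraries but BDNF IgA replicate 2. ACTB, encoding beta actin, had a log2 fold change of 0.00 ± 0.05 (interval -0.10 to 0.10).

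The counts of the other lists stand beside 4.49% higher and 3.18% lower of all genes tested. Of 19 genes of the integrated stress response 6 were higher and 1 lower, of 31 constitutive proteasome genes 5 were lower, of 22 ribosome biogenesis genes 2 were lower and of 16 NRF2 genes 1 was lower. Of 16 ligands for T and NK cells 3 were higher, as were 2 of 16 BCL2 family genes, 2 of 20 of the TGF-beta axis, 2 of 14 mesenchymal genes and 1 of 3 metallothioneins. In the VEGF axis (9 tested) and the mucins (7 tested) 1 gene was higher and 1 lower. The lists of the unfolded protein response (18 tested) and of fatty acid synthesis (11 tested) held 0 called genes by edgeR, and at most 3 and 1 in any alternative. Leaving out BDNF IgA replicate 2 raised several of these numbers, to 10 higher genes of the integrated stress response and 16 and 11 lower genes of the proteasome and of ribosome biogenesis. Without untreated replicate 2 the proteasome genes lower were 1, and without BDNF IgA replicate 3 or untreated replicate 1 the stress response genes higher were 2.

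The direct comparison of BDNF IgA with TSPAN7 IgA asked which changes depended on which of the antibodies was given. In it 843 genes were above and 641 below their TSPAN7 IgA level in cells given BDNF IgA, 4.5% and 3.42% of the genes tested. Against the same untreated libraries TSPAN7 IgA gave 836 higher and 764 lower genes (4.46% and 4.08%). Leaving out single libraries moved the direct comparison, to 1722 and 1554 genes in that order without BDNF IgA replicate 2, 384 and 245 without BDNF IgA replicate 1, 286 and 196 without BDNF IgA replicate 3, 308 and 196 without TSPAN7 IgA replicate 2 and 457 and 342 without TSPAN7 IgA replicate 3. As antibody preparations, a difference in target and in any other content cannot be told apart.

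Interferon-stimulated genes were higher with either antibody than in untreated cells. Of the 70 tested, 57 were higher with BDNF IgA against untreated and 52 higher and 1 lower with TSPAN7 IgA against the same untreated libraries, with medians of 0.77 and 0.70, and the direct comparison called 10 higher and 0 lower in cells given BDNF IgA. The 10 became 3 without BDNF IgA replicate 3 or TSPAN7 IgA replicate 2, 6 without TSPAN7 IgA replicate 1 and 16 without BDNF IgA replicate 2. The difference between the antibodies was 0.02 for ISG15 (95% interval -0.10 to 0.13, adjusted p 0.888) and -0.02 for IFIT1 (-0.17 to 0.13, 0.917). The increases over untreated cells of these genes with TSPAN7 IgA were 2.36 and 1.83. Other members were higher with BDNF IgA. IFITM1 had 3335, 3192 and 3320.4 normalised counts with TSPAN7 IgA against 4333, 3812 and 5148 with BDNF IgA, a difference of 0.43 (adjusted p 0.000664), and TRIM22 differed by 0.49 (adjusted p 0.00146). IFI27 (0.36), IFI44L (0.31) and IFI6 (0.22) were also called higher. Their calls were lost without several single libraries, among them BDNF IgA replicate 3 (edgeR adjusted p 0.0801, 0.146 and 0.301) and TSPAN7 IgA replicate 2 (0.0678, 0.0581 and 0.134), and that of IFI27 with DESeq2 (0.0872). HLA-B (0.28) was called and lost the call without the same libraries (0.0784 and 0.0623).

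The acute-phase and complement genes differed between the antibodies. Against untreated cells TSPAN7 IgA gave 2 higher and 1 lower of the 16 genes, with a median of 0.11, and in the direct comparison 9 were higher and 1 lower with BDNF IgA, or 14 and 1 without BDNF IgA replicate 2. CFB had 1477, 1423 and 1322 normalised counts with TSPAN7 IgA, close to the untreated libraries, and the difference was 0.89 (adjusted p 6.42e-05). LCN2 differed by 0.59 (adjusted p 0.00336), SAA1 by 0.52 (adjusted p 0.000859) and S100A8 by 0.67 (adjusted p 0.00478, or 0.0567 with DESeq2). TNFSF10 had 859, 880.1 and 899 counts with TSPAN7 IgA and differed by 0.64 (adjusted p 0.00748, or 0.0560 with DESeq2). MMP7 (0.93) was called except without BDNF IgA replicate 3 (edgeR adjusted p 0.0701), and SPARC (1.03, adjusted p 0.000176) and FN1 (0.38, adjusted p 0.00123) were called.

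Among called genes with a mean of at least 50 normalised counts with BDNF IgA or TSPAN7 IgA, the 5 largest differences in favour of BDNF IgA were CHI3L1 (1.85, adjusted p 0.00057), the acyl-CoA synthetase ACSL5 (1.65, 2.52e-06), haptoglobin, HP (1.61, 0.000366), the urea transporter SLC14A1 (1.60, 0.000156) and PPP1R16B (1.59, 5.2e-05). In ACSL5 the antibodies moved in opposite directions from untreated cells. It had 173, 191 and 227 counts in untreated cells, 383, 309.6 and 441 with BDNF IgA and 115, 114 and 133 with TSPAN7 IgA, and both changes were called (adjusted p 8.74e-05 and 0.00385). HP, SLC14A1 and PPP1R16B were not called in BDNF IgA against untreated (adjusted p 0.128, 0.146 and 0.332) and were lower with TSPAN7 IgA than in untreated cells (adjusted p 0.0131, 0.00334 and 0.000194). The 3 were called higher with BDNF IgA when replicate 2 was left out (0.0313, 0.00988 and 0.00626).

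In the other direction replication-dependent histones were lower with BDNF IgA than with TSPAN7 IgA in 33 of 53 cases and higher in 0. The number lower was 21 without BDNF IgA replicate 3 or TSPAN7 IgA replicate 1, 22 without BDNF IgA replicate 1 and 44 at most, without BDNF IgA replicate 2. Against untreated cells TSPAN7 IgA gave 6 higher and 6 lower, with a median of -0.06. HIST1H2BB had 1133, 1188 and 1064 normalised counts with TSPAN7 IgA, above untreated, and 605, 783 and 559 with BDNF IgA, a difference of -0.80 (adjusted p 3.36e-05). The differences for HIST1H1A, HIST1H3J, HIST1H4L, HIST1H4D and HIST1H4C were -0.68, -0.67, -0.65, -0.62 and -0.30, with adjusted p up to 0.00239. MUC5AC differed by -0.86 (adjusted p 0.000656). Under the same count minimum, the 5 largest differences of this sign were NPY4R (-1.08), PF4V1 (-1.03), RP11-16C1.2 (-0.95), IL6 (-0.94) and INHBA (-0.93). In BDNF IgA against untreated PF4V1 was called lower and RP11-16C1.2 (-0.70) was not called. IL6 (0.41) and INHBA (0.36) were above 0 there and not called, so theirs are no decreases from untreated cells. Without TSPAN7 IgA replicate 2 the calls of NPY4R, IL6 and RP11-16C1.2 were lost (edgeR adjusted p 0.0664, 0.0690 and 0.100), and those of IL6 and RP11-16C1.2 also without BDNF IgA replicate 1 (0.0571 and 0.164). RP11-16C1.2 was not called without any BDNF IgA or TSPAN7 IgA library other than BDNF IgA replicate 2, or with only the 6 libraries in the fit (0.0512).

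Some inflammatory and uptake genes also differed. IL8 had 1751, 2221 and 1962 normalised counts with TSPAN7 IgA against 1176, 1299.5 and 1087 with BDNF IgA, a difference of -0.74 (adjusted p 8.89e-06), and CCL20 differed by -0.57 (adjusted p 0.00633, or 0.0711 without TSPAN7 IgA replicate 2). DUSP5 differed by -0.43 (adjusted p 0.000761). Against untreated cells IL8 and CCL20 were called higher with BDNF IgA and DUSP5 was not called. BDNF was lower with BDNF IgA than with TSPAN7 IgA by a log2 difference of -0.46 (adjusted p 0.022), though with BDNF IgA it was not below untreated cells (0.21, edgeR adjusted p 0.354). The call of BDNF between the antibodies was lost without BDNF IgA replicate 1 (0.140) or 3 (0.135) or TSPAN7 IgA replicate 2 (edgeR adjusted p 0.148). PIGR, at 48.9, 40.0 and 21.6 counts with TSPAN7 IgA, differed by 1.35 (adjusted p 0.00716, or 0.0821 without BDNF IgA replicate 3). SORCS1 (0.61, adjusted p 0.00239) and FCGRT (0.77, adjusted p 0.00195) were higher with BDNF IgA. ACTB differed by -0.21 (adjusted p 0.0121), a call lost without BDNF IgA replicate 3 (0.0815) or TSPAN7 IgA replicate 2 (0.0610).

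**Figure D4:**
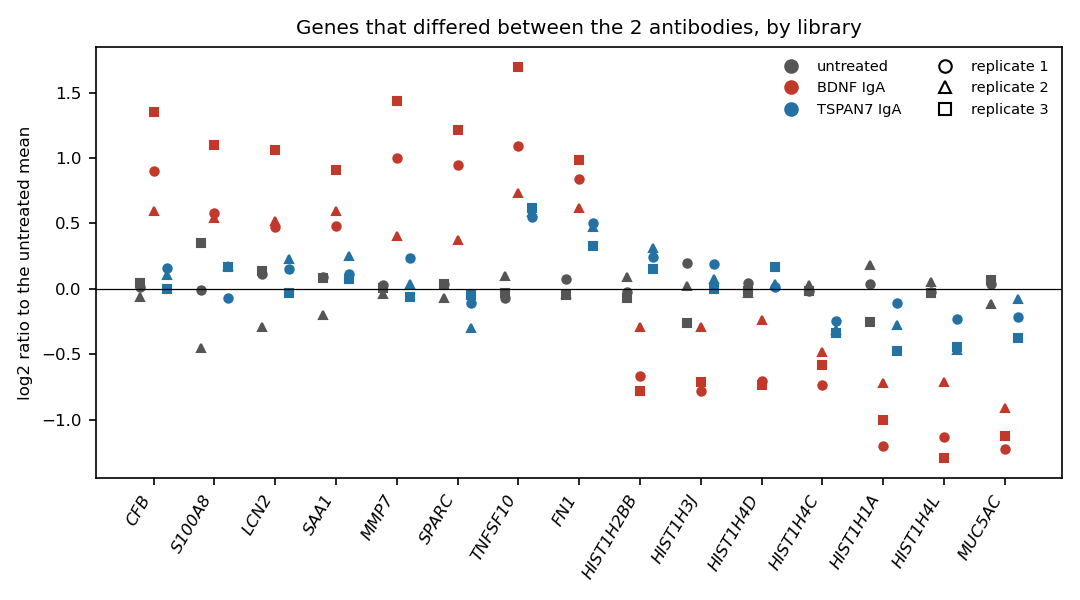
Log2 ratio of normalised counts to the untreated mean in each of the 9 libraries for 15 genes called between the antibodies; grey is untreated, red BDNF IgA, blue TSPAN7 IgA, and the symbol gives the replicate. CFB, MMP7 and TNFSF10 lie above 0 in the 3 BDNF IgA libraries and HIST1H4L, HIST1H1A and MUC5AC below, and BDNF IgA replicate 2 is the nearest of its group to 0 in these 6 genes.

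The order of the BDNF IgA libraries recurred over some lists and not over others. The median log2 ratio of the acute-phase and complement genes to the untreated mean was 0.53, 0.37 and 0.85 in BDNF IgA replicates 1, 2 and 3, against 0.13, 0.14 and 0.04 in the TSPAN7 IgA replicates. For histones it was -0.38, -0.18 and -0.39, against -0.02, -0.06 and -0.06. For cytosolic heat shock genes it was -0.17, -0.06 and -0.35, and for the MHC class I chains 0.47, 0.27 and 0.57. For the IFIT, IFITM and MX effectors replicate 2 was not the lowest, at 0.83, 0.87 and 1.08. In other lists replicate 2 was the farthest from untreated cells. The values were -0.03, -0.23 and -0.11 for hypoxia genes and -0.10, -0.15 and -0.10 for cholesterol synthesis genes. So replicate 2 was nearest to untreated cells in the first 4 lists and not in the others given.

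**Figure D5:**
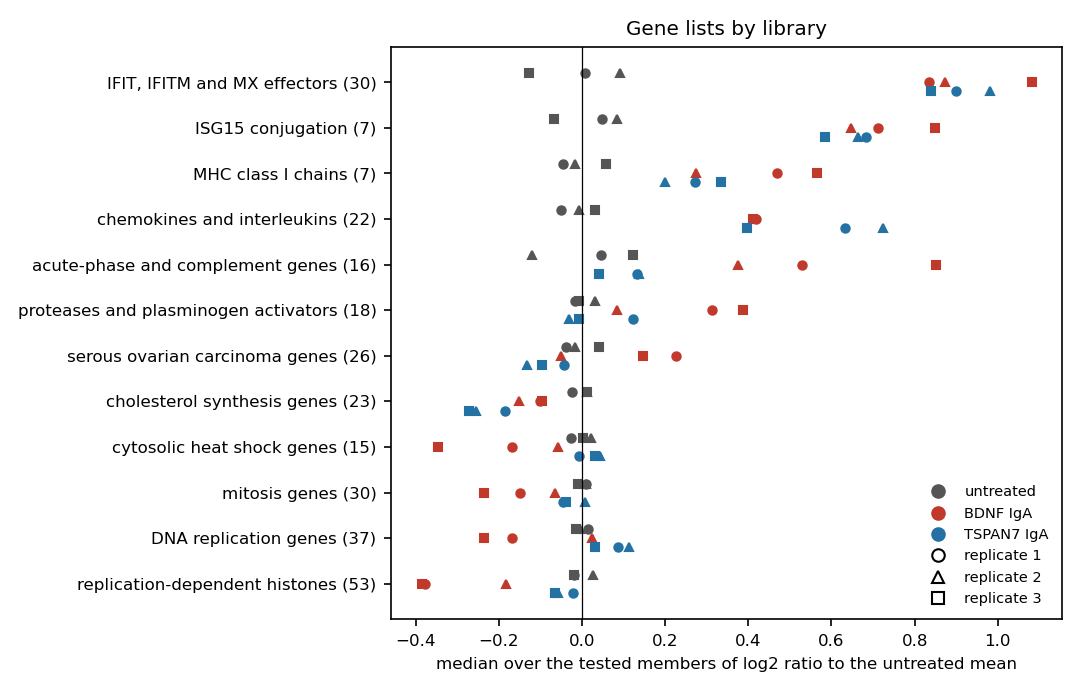
For 12 gene lists (tested members in brackets), the median over members of the log2 ratio of each library to the untreated mean; grey is untreated, red BDNF IgA, blue TSPAN7 IgA, and the symbol gives the replicate. In the effector list both antibodies lie between 0.83 and 1.08, while in the acute-phase list BDNF IgA lies at 0.37 or above and TSPAN7 IgA at 0.14 or below.

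The response to BDNF IgA was also set against that to non-specific IgA, each taken against the untreated cells of its own experiment, in 1 fit of all 18 libraries. Of 19727 genes tested, 2418 had a higher and 2163 a lower response to BDNF IgA (12.3% and 11%). Antibody, its preparation and experiment cannot be told apart here. Library size scaling gave 3701 and 952, with 79.5% of the calls higher against 52.8%, while shifting the median of all genes to 0.24. The mitochondrial share was 19.1% in non-specific IgA replicate 3 and at most 10.03% in the 6 libraries of BDNF IgA and untreated cells described above. Interferon-stimulated genes had a higher response to BDNF IgA in 53 of 70 cases and a lower in 2, with a median difference of 0.91. Chemokines and interleukins went the other way, with 1 higher and 16 lower of 23. With non-specific IgA against the untreated cells of the first experiment, 8 of the 70 interferon-stimulated genes were higher and 25 lower (median -0.21). Of the 23 chemokines and interleukins 16 were higher and 2 lower there. These counts stand beside 3654 higher and 3835 lower of all 19727 genes tested, a larger share than for BDNF IgA against untreated. The share of interferon-stimulated genes that was higher was below that over all genes.

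The lower responses were led by genes that rose steeply with non-specific IgA. IL8 had 82, 197 and 218 counts in untreated cells of the first experiment and 17837, 11360 and 11882 with non-specific IgA, and its response to BDNF IgA was lower by a log2 difference of -6.13 ± 0.30 (adjusted p 4.84e-11). CCL20 differed by -5.64 ± 0.29, and HSPA6, an inducible HSP70, by -6.56 ± 0.72. CD69 went from 0, 4 and 1 counts to 172, 211 and 94 in the first experiment and differed by -6.90 ± 0.76. CLDN14, a claudin, was at 0 in the 3 untreated libraries of that experiment and at 32, 27 and 64 counts with non-specific IgA. The 5 largest differences of the other sign were RP1-74M1.3, LRRC32, C2orf54, MT-TA and RARRES1, from 6.25 down to 3.81. All had at most 7 counts in each non-specific IgA library, and their log2 fold changes with non-specific IgA were -5.97 to -3.015. All but RP1-74M1.3 lost the call with limma (adjusted p 0.0721 to 0.223). With BDNF IgA against untreated, RP1-74M1.3 differed by 0.28, LRRC32 by -0.49 and MT-TA by -0.30, and C2orf54 was too low to test. RARRES1 was the one of them called with BDNF IgA against untreated, at 0.79 ± 0.22 (adjusted p 0.0275, or 0.231, 0.0805 and 0.124 without BDNF IgA replicate 3, untreated replicate 2 or untreated replicate 3).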

How the data were processed

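RNA sequencing reads from 18 libraries of OVCAR3 cells (total RNA, paired-end) were trimmed, aligned to GRCh37 and counted per gene by the authors. The methods name STAR and featureCounts, and the submitters' processing notes name HTSeq 0.6.1, cutadapt 1.8.1 and bcl2fastq 2.20.0.422. Strand was not stated, so overlapping and antisense genes cannot be told apart. The deposited values used here were raw counts per gene and library. Exact duplicate rows (2055 of 57820, 1.99% to 2.34% of counts) were removed.

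Counts of the 9 libraries of the second experiment were fitted together in edgeR 4.0.16 (R 4.3.3) with its default filter on low counts, TMM scaling and the quasi-likelihood test, without a block for replicate number. Adjusted p-values are Benjamini-Hochberg over all genes tested and intervals are 95%. All 18 libraries were fitted for the contrast with non-specific IgA. Normalised counts are counts divided by library size and TMM factor, brought to the mean library. Per-library list medians used a pseudocount of 2. Alternatives were DESeq2 1.42.0, limma 3.58.1 (voom with group weights), other scalings, filters and thresholds, a replicate block and leaving out each library. Scripts were tested on simulated data.

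The members, the 45 gene lists and the tests were chosen with earlier results of these data known. Named were the 15 largest and 15 smallest called changes with a mean of at least 50 normalised counts in either group and no overlap between groups, up to 8 called members per list, 16 genes whatever their values, all tested members of the neurotrophin and antibody receptor lists, interferon ligands with more than 10 counts, and the 5 largest and smallest differences of each further contrast. Precision is set by the 3 libraries per group and by depth, and low genes carry larger standard errors. Some named genes are not reported here.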

Additional observations from a re-analysis of the deposited data

Results flagged for a closer look

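Responses that differed between antibodies by a test of the difference itself are listed here. Between BDNF IgA and TSPAN7 IgA, 843 genes were higher and 641 lower. Of the genes whose difference is given with the results, not all named genes that were called, log2 differences (BDNF IgA minus TSPAN7 IgA) above 0 were CHI3L1 1.85, ACSL5 1.65, HP 1.61, SLC14A1 1.60, PPP1R16B 1.59, PIGR 1.35, SPARC 1.03, MMP7 0.93, CFB 0.89, FCGRT 0.77, S100A8 0.67, TNFSF10 0.64, SORCS1 0.61, LCN2 0.59, SAA1 0.52, TRIM22 0.49, IFITM1 0.43, FN1 0.38, IFI27 0.36, IFI44L 0.31, HLA-B 0.28 and IFI6 0.22. Those below 0 were NPY4R -1.08, PF4V1 -1.03, RP11-16C1.2 -0.95, IL6 -0.94, INHBA -0.93, MUC5AC -0.86, HIST1H2BB -0.80, IL8 -0.74, HIST1H1A -0.68, HIST1H3J -0.67, HIST1H4L -0.65, HIST1H4D -0.62, CCL20 -0.57, BDNF -0.46, DUSP5 -0.43, HIST1H4C -0.30 and ACTB -0.21. A sign here gives no direction from untreated cells. The calls of these genes that were lost without single libraries are given with the results.

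Between the responses to BDNF IgA and to non-specific IgA, 2418 genes were higher and 2163 lower. The log2 difference of the responses was RP1-74M1.3 6.25, LRRC32 5.32, C2orf54 4.02, MT-TA 3.82 and RARRES1 3.81 among the largest, and CLDN14 -7.79, CD69 -6.90, HSPA6 -6.56, IL8 -6.13 and CCL20 -5.64 among the smallest. CLDN14 was at 0 in the untreated libraries of the first experiment, so its fitted value is no bound on the difference. Antibody, its preparation and experiment cannot be told apart in this contrast.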

How the results depend on the processing

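The 841 higher and 596 lower genes with BDNF IgA against untreated stayed within 1.5 times of these counts under the 11 other tools, scalings, filters and designs tried, including the replicate block (949 and 706). Pairing by replicate number was not seen but is not excluded. Deviations of same-numbered BDNF IgA and untreated libraries correlated at -0.074, 0.029 and 0.087 over 14085 genes, and those with different numbers at -0.117 to 0.098. Between BDNF IgA and TSPAN7 IgA the same-numbered values were -0.006, 0.157 and 0.022, and the others ran from -0.158 to 0.125. An adjusted p under 0.01 gave 403 and 235. Leaving out single libraries gave 429 to 1505 higher and 293 to 1293 lower, the upper ends without BDNF IgA replicate 2. For BDNF IgA against TSPAN7 IgA (843 and 641) an adjusted p under 0.01 gave 355 and 223, the 6 libraries alone gave 427 lower genes, and single libraries left out gave 286 to 1722 and 196 to 1554. For the responses to BDNF IgA and non-specific IgA (2418 and 2163) library size scaling gave 3701 and 952, an adjusted p under 0.01 gave 1212 and 1198, and libraries left out gave 1819 to 3331 and 1637 to 2672. Interferon-stimulated genes higher with BDNF IgA numbered 53 to 58 of the tested members in all alternatives.

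Of 138 named genes, the values without single libraries kept direction and call in 1167 cases, lost the call in 47, gained it in 9 and turned direction in 19, and other alternatives did so in 1467, 17, 9 and 5. All reversals were of genes called in neither setting. With single libraries left out, the log2 fold changes of the genes concerned ranged over -0.15 to 0.023 for IFNE, -0.018 to 0.31 for BDNF, -0.16 to 0.21 for NGFR, -0.0049 to 0.085 for SORT1, -0.47 to 0.30 for NTF4, -0.054 to 0.019 for FURIN, -0.011 to 0.082 for PCSK5, -0.12 to 0.020 for PCSK7, -0.095 to 0.55 for PIGR, -0.054 to 0.054 for ACTB, -0.011 to 0.61 for IL6 and -0.28 to 0.40 for CD69. Under other alternatives ACTB was at -0.00015 with RLE scaling, -0.0047 with upper quartile scaling and -0.0021 with a minimum of 50 counts in 3 libraries, FURIN at 0.00087 with library size scaling and CD69 at 0.049 with limma. The cause was not tested.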
